A study of Mus musculus with 6 samples.

Results

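Txnip (thioredoxin-interacting protein), the related alpha-arrestins, the glucose-responsive transcription factors that act on Txnip, and the partners that TXNIP binds or controls were followed in the autophagy-deficient mouse brain. The listed genes were Txnip, Arrdc1, Arrdc2, Arrdc3, Arrdc4, Mlxip, Mlxipl, Txn1 and Slc2a3. Probes for a transcribed region are grouped into a transcript cluster, and each gene was read from the cluster that the array annotation pairs with that symbol alone, taking the brightest where there were several. Of the 9 genes, 8 had such a cluster, out of 19699 genes read in the same way. Arrdc3 had none and was not analysed here. Txnip was chosen by its difference between the genotypes on these same 6 arrays, and the others were listed around it with earlier results of these arrays known. The differences between genotypes below are therefore a description of the 8 genes and were not tested.

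Both groups were C57BL/6 mice at postnatal day 16, 3 arrays of Nestin-Cre;Atg7+/+ (control) and 3 of Nestin-Cre;Atg7f/f (cKO), so both groups carry the Cre driver and the cKO mice also carry the floxed alleles of Atg7, the E1-like enzyme of autophagosome formation. The study's text names Nestin-Cre, a driver active in the precursors of neurons and glia, and the cerebral cortex. The sample labels name NexCre, a driver active in excitatory neurons of the forebrain, and the whole brain. Blood cells and microglia do not arise from the cells that either driver marks. Total RNA was hybridised to Affymetrix mouse exon arrays and deposited as log2 signals. Nothing in the sources read here ties each array to its own mouse.

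TXNIP binds reduced thioredoxin and blocks it, and as an alpha-arrestin it also bridges glucose transporters to the endocytic machinery. Its transcription follows the level of sugar phosphates in the cell through MondoA (Mlxip) and ChREBP (Mlxipl), which bind DNA together with their partner MLX at a carbohydrate response element. Arrdc4 is the other alpha-arrestin gene known as a direct target of these factors. The loop closes when more TXNIP and ARRDC4 lower glucose uptake.

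The promoter windows of Txnip and Arrdc4 are shown because these are the alpha-arrestin genes that the glucose-responsive factors control, while their values below differ. They are RefSeq windows of build GRCm38.p6, which run from 250 bases before to 50 bases after the gene start. The Txnip window lies at chr3:96557707-96558006 on the plus strand and the Arrdc4 window at chr7:68749189-68749488 on the minus strand. Capitals mark the motif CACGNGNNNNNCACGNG, which holds a pair of E-box-like boxes, the palindromic E-box CACGTG, and CCAAT or its complement ATTGG.
Txnip: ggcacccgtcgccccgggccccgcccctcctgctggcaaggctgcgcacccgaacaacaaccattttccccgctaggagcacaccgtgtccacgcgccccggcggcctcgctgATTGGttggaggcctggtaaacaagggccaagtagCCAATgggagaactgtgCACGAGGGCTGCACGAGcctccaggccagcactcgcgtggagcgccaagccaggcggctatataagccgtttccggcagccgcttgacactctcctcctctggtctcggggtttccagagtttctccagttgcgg
Arrdc4: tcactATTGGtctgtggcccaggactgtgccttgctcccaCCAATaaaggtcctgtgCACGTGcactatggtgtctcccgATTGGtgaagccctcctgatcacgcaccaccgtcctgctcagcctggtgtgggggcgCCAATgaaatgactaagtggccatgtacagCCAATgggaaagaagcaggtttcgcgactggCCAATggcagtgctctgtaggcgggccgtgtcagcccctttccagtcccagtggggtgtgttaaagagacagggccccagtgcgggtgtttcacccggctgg
In the Txnip window the paired boxes start 85 bases before the gene start and have CCAAT boxes that start 137 and 102 bases before it. The letters of the paired motif were chosen with the Txnip window in view, and on both strands it was found in 16 of 32851 mouse promoter windows of the same length (0.0487%). The Arrdc4 window had no such pair but a single CACGTG, 193 bases before the gene start, with 6 CCAAT boxes. CACGTG was found in 7.15% of all windows and CCAAT in 37.4%. The inverted arrangement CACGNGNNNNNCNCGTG was in 0.0457% of windows and in none of the windows of the listed genes. Of the 9 listed genes, 8 had at least 1 window in the RefSeq table. The upstream of the 2 windows of Mlxipl, at chr5:135089640-135089939, also held CACGTG, 98 bases before the start. The motif GTAAACA, bound by FOXO factors, was present 121 bases before the start of Txnip and in 3.65% of windows, and in no other window of the listed genes. A match of letters is a description and was not tied to the array values.

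As a check of the labels, the cluster of Atg7 measured 6.58, 6.54 and 6.39 across controls and 6.12, 6.03 and 5.90 across cKO arrays (log2 signal, replicates 1 to 3), a difference of -0.48 (standard error 0.086 from the group SDs), although the annotation pairs it with Camsap1 as well. In cKO replicate 1 the X-linked gene Xist was at 9.51 against 3.48 to 4.15 in the other 5 arrays, and the Y-linked gene Eif2s3y was at 2.90 against 5.50 or above, while the labels give no sex. The differences of the 8 genes are therefore also given without cKO replicate 1. Those of other named genes, cell type markers aside, are given where it moves them by over 1.5 times or turns their sign. With limma, 0 of 19699 genes (0%) reached an adjusted p under 0.05, with 779 at an unadjusted p under 0.05 (3.95%), or 0 and 785 without moderation of the spread. Of 56 markers of 11 cell types and regions, 48 had a cluster of their own and 47 of them lay above the lowest 25% of genes by signal, among them Neurod6 and Tbr1 of cortical excitatory neurons.

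The groups were apart for Txnip, with the cKO arrays above the controls. Control replicates 1, 2 and 3 measured 6.24, 6.27 and 6.40 on the log2 scale. Replicates 1, 2 and 3 of the cKO measured 7.21, 6.85 and 6.61. The controls lay closer together than the cKO arrays, cKO replicate 1 was the highest of the 6 arrays, and cKO replicate 3 stood nearest to the controls. The control mean was 6.30 ± 0.089 (SD, n = 3) and the cKO mean 6.89 ± 0.30 (SD, n = 3), a difference of 0.59 on the log2 scale (standard error 0.15) and a fold change of 1.50. Relative to the control mean, the fold in the single cKO arrays was 1.88, 1.46 and 1.24. Without cKO replicate 1 the difference was 0.43. In all, 82 genes (0.416%) had a difference at least as large, and 818 genes (4.15%) had every cKO array above every control array. Among the 8 measured genes this count was 1, Txnip itself, and nothing is read from it because the contrast chose Txnip.

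The SD of Txnip was larger among the cKO arrays than among the controls, with 3 arrays in each group, and this was not tested. Replicate 1 of the cKO, the array with high Xist, was at 7.21, and cKO replicates 2 and 3 were at 6.85 and 6.61. The controls spanned 0.17. Its SD among the controls was above that of 44.9% of genes, and its SD among the cKO arrays was above that of 88.1%. The median SD over all genes was 0.098 in the controls and 0.13 in the cKO arrays. The distance between the highest and the lowest cKO array was 0.60, of the same size as the difference between the group means. The values above come from cluster 6899760. Txnip has another cluster, 6907288, which was dim, with log2 signals of 2.41, 2.32 and 2.47 across controls and of 2.33, 2.09 and 2.48 across cKO arrays. Its groups overlapped, and its difference was -0.10 (standard error 0.12 from the group SDs). With both clusters averaged the difference of Txnip was 0.24.

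In RNA of whole tissue, more cells of a type and more RNA per cell cannot be told apart. Of 5 blood markers, 2 had a cluster of their own, and neither of them encodes a globin. Alas2, the heme synthesis enzyme of red cell precursors, was at 6.07, 5.67 and 5.64 across controls and at 6.47, 6.30 and 5.95 across cKO arrays. Slc4a1, the red cell anion exchanger, was at 5.84, 5.71 and 5.66 across controls and at 5.96, 5.79 and 5.67 across cKO arrays. The log2 of the summed signal of these markers lay between 6.65 and 6.96 in controls and between 6.81 and 7.24 in cKO arrays. The cKO arrays were in the same order as for Txnip, but the controls were in the reverse order. The microglia and choroid plexus markers had the same order of cKO arrays in their summed levels. The 5 microglia markers summed to 9.02 to 9.23 in the controls and 9.09 to 9.32 in the cKO arrays. The 5 astrocyte markers were the only list of the 11 whose summed level did not overlap. Among single genes, 8.39% of all genes did not overlap in either direction, so nothing is read from 1 list of 11. The astrocyte sum was at 10.07 to 10.17 in the controls and 10.23 to 10.24 in the cKO arrays, and 5 of 5 markers had a higher mean. No single marker of the 5 was without overlap, and their differences ran from 0.01 for Gja1 to 0.25 for Gfap. The 5 endothelial markers summed to 8.25 to 8.50 and 8.46 to 8.61, and the 5 choroid plexus markers to 7.30 to 9.91 and 7.37 to 10.11, the highest in cKO replicate 1. Of 4 measured striatal markers, 4 had a lower mean, with sums of 9.09 to 10.23 in the controls and 8.24 to 9.12 in the cKO arrays. Of 5 interneuron markers, 5 had a lower mean, with sums of 10.80 to 11.28 and 10.77 to 11.11, and of 4 measured excitatory neuron markers, 3 did, with sums of 11.07 to 11.25 and 10.84 to 11.11. Neurod6 among the latter, which is also the gene at which a NexCre driver sits, differed by -0.44 with every cKO array below every control array. It was at 7.991, 7.801 and 7.965 across controls and at 7.178, 7.779 and 7.474 across cKO arrays. Replicate 1 of the cKO was thus the lowest array, and cKO replicate 2 lay only just below control replicate 2. The part of these cell types in the values of Txnip was not tested.

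**Figure D1:**
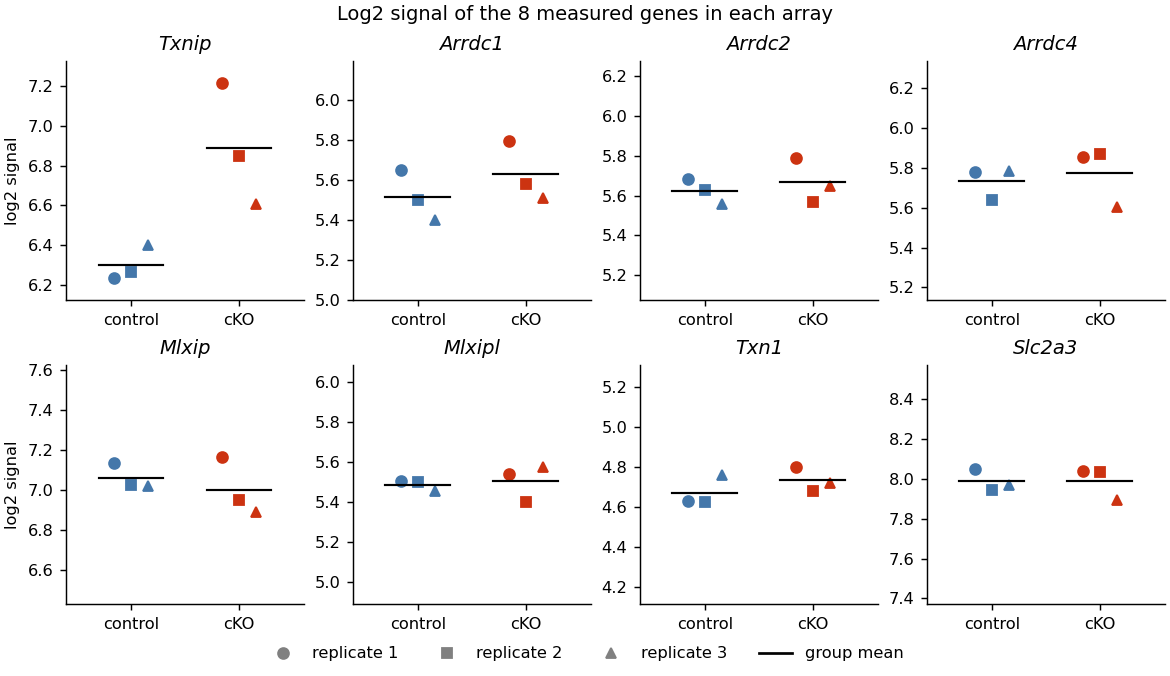
Log2 signal (y axis) of the 8 measured genes in the 3 control and 3 cKO arrays, 1 panel a gene, with every y axis spanning the same number of log2 units. Points are arrays, shaped by replicate number, lines are group means, and the groups are apart in the panel of Txnip, with controls up to 6.40 and cKO arrays from 6.61, and overlap in the other 7 panels.

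The other measured alpha-arrestins of the list, Arrdc1, Arrdc2 and Arrdc4, had differences of 0.11, 0.05 and 0.04, each with overlapping groups. Arrdc4, which shares with Txnip its control by MondoA and ChREBP, was at 5.78, 5.64 and 5.79 across controls and at 5.86, 5.87 and 5.60 across cKO arrays. Replicates 1 and 2 of the cKO lay just above the controls and replicate 3 lay below them. Its difference was 0.04 (standard error 0.10, 95% interval from -0.20 to 0.28), and 0.00033 without cKO replicate 1. In cKO replicate 1, in which Txnip stood 0.91 above the control mean, Arrdc4 stood 0.12 above its own.

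Arrdc1, which recruits the budding machinery to the plasma membrane for the release of microvesicles, was at 5.65, 5.50 and 5.40 across controls and at 5.79, 5.58 and 5.51 across cKO arrays. Only cKO replicate 1 lay above all controls. The difference was 0.11 (standard error 0.11, 95% interval from -0.14 to 0.37), and 0.03 without cKO replicate 1. Arrdc2, an adaptor of the same family, was at 5.68, 5.63 and 5.56 across controls and at 5.79, 5.57 and 5.65 across cKO arrays. Here too cKO replicate 1 was the highest array, and the difference was 0.05 (standard error 0.086, 95% interval from -0.16 to 0.25), or -0.02 without it.

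The glucose-responsive factors themselves had similar signals in both genotypes. Mlxip, the gene of MondoA, was at 7.14, 7.03 and 7.02 across controls and at 7.17, 6.95 and 6.89 across cKO arrays. Replicate 1 of the cKO was above all controls and the other two cKO arrays were below them, so the difference of -0.06 (standard error 0.096, 95% interval from -0.29 to 0.17) became -0.14 without replicate 1. Mlxipl, the gene of ChREBP, was at 5.50, 5.50 and 5.46 across controls and at 5.54, 5.40 and 5.58 across cKO arrays. The controls differed by 0.047 at most and lay within the span of the cKO arrays, with a difference of 0.02 (standard error 0.078, 95% interval from -0.17 to 0.21), and 0.0017 without cKO replicate 1. These clusters measure the RNA of the gene and not whether the factor is in the nucleus, which is one of the ways in which glucose acts on it.

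The genes of proteins that TXNIP acts on also had close levels in the groups. Txn1, cytosolic thioredoxin, the redox protein that TXNIP blocks, was at 4.63, 4.62 and 4.76 across controls and at 4.80, 4.68 and 4.72 across cKO arrays. Of these, cKO replicate 1 alone lay above all controls, and the difference was 0.06 (standard error 0.079, 95% interval from -0.12 to 0.25), or 0.03 without that array. Slc2a3, which encodes GLUT3, the main glucose transporter of neurons, was at 8.05, 7.94 and 7.97 across controls and at 8.04, 8.04 and 7.90 across cKO arrays. Its groups overlapped almost fully, with a difference of 0.0031 (standard error 0.078, 95% interval from -0.18 to 0.19), or -0.02 without cKO replicate 1.

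**Figure D2:**
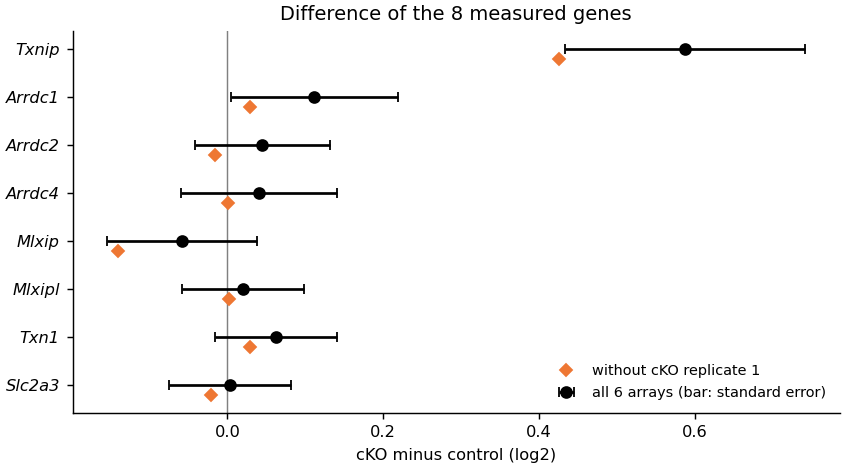
Difference between genotypes (x axis, cKO minus control, log2) of the 8 measured genes (y axis), with circles for all 6 arrays, bars for the standard error from limma and diamonds for the values without cKO replicate 1. Txnip stands at 0.59, or 0.43 without that array, and the other 7 genes lie between -0.06 and 0.11, or between -0.14 and 0.03 without it.

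Of the 7 measured genes other than Txnip, 7 had overlapping groups, and over all genes 8.39% had groups that did not overlap in either direction. The departure of cKO replicate 1 from the control mean was upward in all 8 genes, from 0.05 for Slc2a3 to 0.91 for Txnip. Over all genes the median departure of this array was also upward, at 0.053, about that of Slc2a3 (0.051) and Mlxipl (0.055). Nothing is therefore read from the shared direction of the 8 genes. All 8 genes lay above the lowest 25% of genes by signal, but this cut does not show that a gene was detected. Of 5 measured hypothalamic markers, 4 passed it too, among them Hcrt with a control mean of 5.7, while the study names the cerebral cortex. The control means of Arrdc1, Arrdc2, Arrdc4 and Mlxipl were 5.5, 5.6, 5.7 and 5.5. That of Txn1 was 4.7, near the array medians over all clusters, 4.45 to 4.53. The effect of low signal on the differences was not tested.

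The pathway around these genes was described with 8 lists of 83 genes, of which 72 were measured. None of the 72 passed at an adjusted p under 0.05 from limma, as was the case for all genes. At an unadjusted p under 0.05 from limma there were 4, namely Klf10, Fasn, Pgam1 and Pdk4, where the share over all genes was 3.95%. In 4 of the 72 genes every cKO array was above every control array (4.15% over all genes) and in 6 every cKO array was below (4.24% over all genes). Apart from the adjusted p, these shares were above those of all genes, most of all where the cKO arrays were below. The lists were chosen with earlier results of these data known, so nothing about the lists is read from the counts.

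A further list held metabolic genes that ChREBP induces elsewhere, mainly in liver and fat. It too was chosen with earlier results of these data known, so its direction is a description and was not tied to ChREBP or to Txnip. Of 8 measured genes, 6 had a lower and 2 a higher mean. The median of the list was -0.15 and that of all genes -0.0059. Klf10, a zinc finger repressor gene induced by glucose and by TGF-beta, was at 6.87, 6.80 and 6.75 across controls and at 6.32, 6.39 and 6.47 across cKO arrays. Every cKO array lay below every control array, the opposite of Txnip, and the difference was -0.41 (standard error 0.078, fold change 0.755, adjusted p = 0.9995 in limma, unadjusted p = 0.00131). Fasn, fatty acid synthase, was at 9.02, 8.97 and 8.87 across controls and at 8.85, 8.65 and 8.34 across cKO arrays. The groups did not overlap, with cKO replicate 1 nearest to the controls, and it differed by -0.34 (standard error 0.13, adjusted p = 0.9995 in limma), or -0.46 without that array. Elovl6, a fatty acid elongase, was also without overlap, with a difference of -0.15 (standard error 0.072). Acly, ATP citrate lyase, differed by -0.22 and Pklr, the liver pyruvate kinase, by 0.05, both with overlap. Both were named for their role after the values were seen, and without cKO replicate 1 these were -0.34 and -0.02. Acaca, acetyl-CoA carboxylase, was also named after its values were seen and went the other way. It differed by 0.12 (standard error 0.36) with overlap, or by 0.47 without cKO replicate 1. The lipid synthesis genes of the list thus did not all share 1 direction. The share of genes with every cKO array below every control array was 3 of 8 here and 4.24% over all genes. Several of these genes serve lipid synthesis, which myelinating cells use heavily. The 4 measured oligodendrocyte markers had a summed level of 10.62 to 10.98 in the controls and 10.31 to 10.80 in the cKO arrays, with 4 of 4 lower. The part of these cells in the list was not tested.

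Among 11 genes of the MYC/MAX/MLX network of transcription factors, 7 had higher and 4 lower means, with a median of 0.08. In this network MondoA and ChREBP pair with MLX and not with MAX. Mxi1, a MAX-binding repressor, was at 6.27, 6.22 and 6.29 across controls and at 6.34, 6.47 and 6.47 across cKO arrays without overlap, a difference of 0.16 (standard error 0.074, adjusted p = 0.9995 in limma). Max itself, the partner that Mxi1 binds, differed by 0.11 without overlap, and Mxd1, another repressor of the network, by 0.16 with overlap. Mlx, the obligate partner of MondoA and ChREBP, is named outside the rule because of its role and after its values were seen. It was at 7.06, 6.84 and 6.95 across controls and at 7.43, 6.85 and 6.80 across cKO arrays. Only cKO replicate 1 lay above the controls, and the difference of 0.08 (standard error 0.17) turned to -0.12 without that array.

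Among 14 measured genes of glycolysis, 4 were higher and 10 lower, with a median of -0.03. Pgam1, a phosphoglycerate mutase, was at 6.03, 5.68 and 5.94 across controls and at 6.70, 6.20 and 6.06 across cKO arrays. Its groups did not overlap, although cKO replicate 3 lay only just above the controls, and the difference of 0.44 (standard error 0.18, adjusted p = 0.9995 in limma) was 0.25 without cKO replicate 1. Pfkl, a phosphofructokinase, differed by -0.18 without overlap and Pgk1, phosphoglycerate kinase, by -0.16 with overlap. Gapdh, Eno1 and Gpi1 had no cluster of their own. Among the 6 kinases and phosphatases of pyruvate dehydrogenase, 2 were higher and 4 lower, with a median of -0.02. Pdk4, a kinase that closes the entry of pyruvate into the mitochondrial cycle and responds to fasting signals, was at 5.90, 5.86 and 5.82 across controls and at 6.00, 6.18 and 6.16 across cKO arrays. The groups did not overlap, and here cKO replicate 1 was the lowest cKO array, in contrast to Txnip. It differed by 0.25 (standard error 0.080, adjusted p = 0.9995 in limma), or 0.31 without that array. Pdk2 differed by 0.12 and Pdp2 by -0.11, both with overlap, or by 0.0052 and -0.19 without that array.

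Of 9 measured glucose transporters other than GLUT3, 3 were higher and 6 lower, with a median of -0.02 and none without overlap. Slc2a1, which encodes GLUT1 of the blood-brain barrier and astrocytes and whose protein TXNIP removes from the cell surface, was at 8.55, 8.62 and 8.55 across controls and at 8.68, 8.68 and 8.62 across cKO arrays. The lowest cKO array lay just below the highest control, and the difference was 0.08 (standard error 0.069, 95% interval from -0.08 to 0.25). Slc2a4, the insulin-responsive transporter, differed by 0.10 and Slc2a9, a urate transporter, by -0.12, or by 0.04 and -0.22 without cKO replicate 1.

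Of 11 measured genes of the thioredoxin system, 7 were higher and 4 lower, with a median of 0.05. Txnl1, a thioredoxin-like protein of the proteasome, differed by -0.11 without overlap (standard error 0.070), Prdx4, the peroxiredoxin of the endoplasmic reticulum, by -0.13 and Prdx3, the mitochondrial one, by 0.09. Txnrd1, Prdx5 and Prdx6 had no cluster of their own. Arrdc5, a further alpha-arrestin outside the listed genes, was dim and differed by 0.0087, or 0.03 without cKO replicate 1. It was grouped with the visual and beta-arrestins, relatives of the alpha-arrestins, and these 5 genes lay between -0.09 for Arrb1 and 0.02 for Arrb2. The 8 measured NEDD4-family ligases, which alpha-arrestins bring to their cargo, lay between -0.07 for Wwp1 and 0.13 for Hecw1, with medians of 0.0012 and -0.02 for the 2 lists, and no gene of either list was without overlap. Smurf2 of the ligases differed by -0.05 and Arr3, the cone arrestin, by -0.02. Without cKO replicate 1 the differences were -0.09 for Arrb2, -0.04 for Arr3, -0.03 for Wwp1, -0.02 for Smurf2 and 0.28 for Hecw1.

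**Figure D3:**
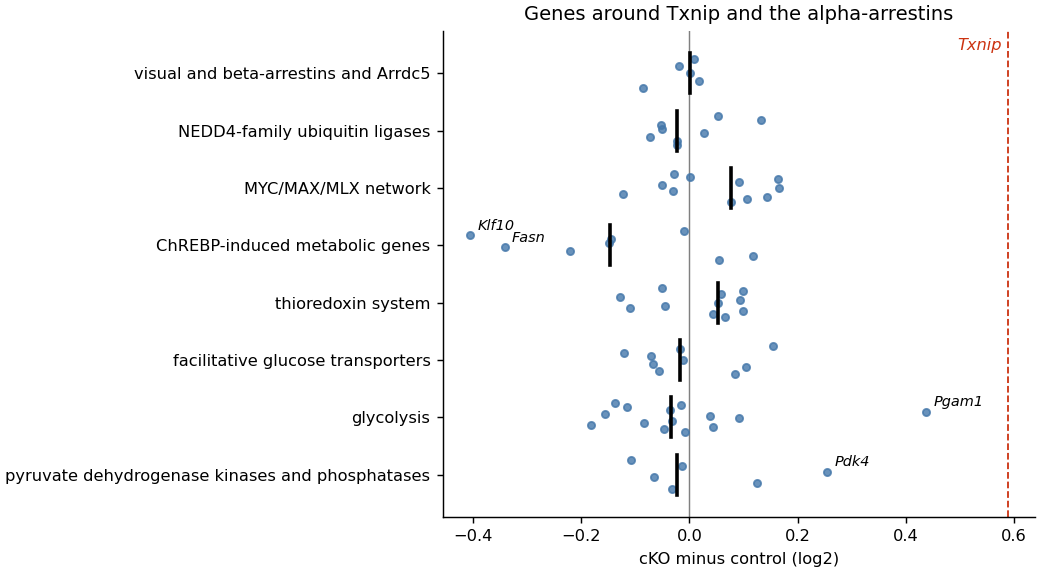
Difference between genotypes (x axis, cKO minus control, log2) of the 72 measured genes in the 8 lists around Txnip (y axis), with a point for each gene, a black bar for the median of the list and a dashed line for Txnip. The ChREBP-induced genes have the lowest of the 8 medians, -0.15, and the 4 genes named in the plot have an unadjusted p under 0.05 from limma, while none of the 72 passed after adjustment.

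The genes most like Txnip were sought among 9407 genes with a signal at or above the median, by the root mean square difference between profiles over the 6 arrays, each centred on its own mean. The 5 closest were Sqstm1, Ephx1, Cryl1, Zfp655 and Psma6, at 0.10, 0.12, 0.13, 0.13 and 0.13 log2 units. The choice by likeness fixes their direction, so their differences are a description. Sqstm1, the autophagy receptor p62, was at 8.87, 8.81 and 8.83 across controls and at 9.62, 9.18 and 9.13 across cKO arrays. As with Txnip, cKO replicate 1 was the highest array, and the difference was 0.47, or 0.32 without that array. Ephx1, the microsomal epoxide hydrolase, differed by 0.46 and Psma6, a proteasome core subunit, by 0.39. Cryl1, a crystallin-related dehydrogenase, differed by 0.38 and its cKO replicate 3, at 6.38, lay close to control replicate 3, at 6.37. Zfp655, a zinc finger gene, differed by 0.55 and had its highest signal in cKO replicate 2 rather than replicate 1. Of the listed genes the closest to Txnip was Arrdc1, at 0.28, with 8.25% of the 9407 genes closer than it. Txn1 came next and then Arrdc4, both at 0.30, with 15.3% and 16.4% closer. The farthest of the listed genes, Mlxipl, with a difference between genotypes of 0.02, was at 0.35, so these distances span a narrow range.

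**Figure D4:**
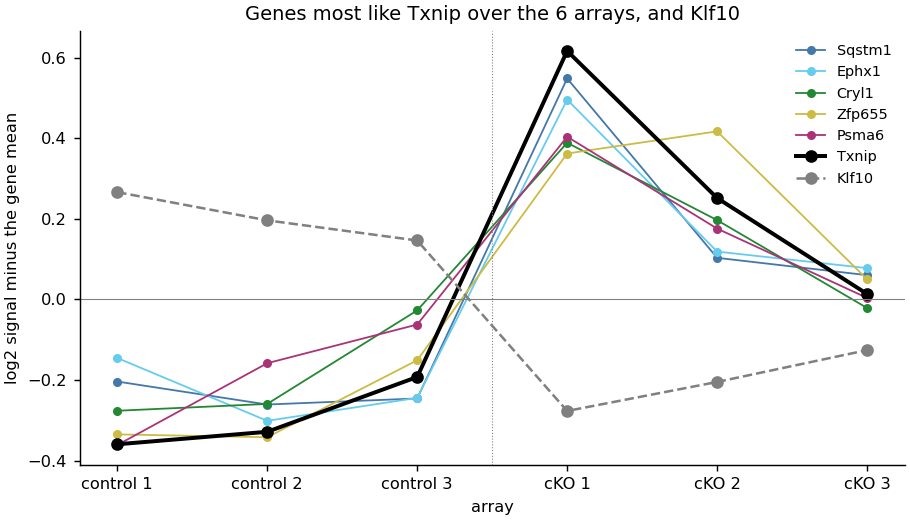
Log2 signal minus the gene's mean over the 6 arrays (y axis) in each array (x axis) for Txnip (thick black line), the 5 genes most like it and Klf10 (dashed), with lines that only join the arrays of a gene. Txnip and the 5 genes are low in the controls and highest in cKO replicate 1 or 2, and Klf10 is high in the 3 controls and low in the 3 cKO arrays.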

How the data were processed

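For each of 6 arrays the authors deposited summarised and normalized log2 signals of transcript clusters. The study names GeneSpring. The summarisation of probes, the genome build and the test behind a further deposited table were not given in the sources used here. That table holds p-values and fold changes of the authors' own comparison and was not used. All value columns had a sample. Of 101175 clusters, 22773 had 1 symbol in the array annotation, 1503 several and 76899 none. Symbols were updated by gene identifier for 22264 clusters, and the brightest cluster was taken for the 2224 genes with several, leaving 19699 genes, dim ones included. Differences are cKO minus control, fitted with lmFit and eBayes of limma 3.58.1 (R 4.3.3), two-sided, with Benjamini-Hochberg adjustment over all genes at 0.05. The test was tried on simulated data. The smallest two-sided p that a permutation of 3 arrays against 3 can give is 0.1. The number of arrays limits the precision, and p-values measure the spread between these arrays, which may be technical. The listed genes, the 8 pathway lists and the 11 marker lists were chosen with earlier results of these data known. Named were all listed genes, up to 3 genes of each pathway list by lowest p, and the 5 genes most like Txnip, without predicted genes. Alternatives were another quantile normalization, median centring, leaving out the lowest 25% of genes by signal, a trended and robust spread, no moderation, averaged clusters, a replicate block, a threshold of 0.1 and each array left out.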

Additional observations from a re-analysis of the deposited data

How the results depend on the processing

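The difference of Txnip was positive under every alternative tried. With 1 array left out it lay between 0.43, without cKO replicate 1, and 0.73, without cKO replicate 3, and it was 0.58 after another quantile normalization and 0.59 with each array centred on its median. With the clusters of Txnip averaged it was 0.24, since the dim cluster enters with equal weight. The count of genes past the threshold was 0 under each alternative except that 1 gene, Peg10, passed without the lowest 25% of genes by signal (14774 genes tested) and also when clusters were averaged per gene. Arrays of both groups carry replicate numbers that nothing ties to a shared litter or day. The deviations of same-numbered arrays correlated at 0.306, 0.037 and 0.166 for numbers 1 to 3, and control replicate 2 correlated best with cKO replicate 3, so the numbers were not taken as pairs. With the replicate block, 0 genes passed, 1156 had an unadjusted p under 0.05 from limma in place of 779, and the difference of Txnip was 0.59. Without cKO replicate 1 that count was 1509. The differences of the other 7 genes moved by less than the spread between replicates under every alternative. The signs of Arrdc2, Arrdc4, Mlxipl and Slc2a3, all near 0, changed with single arrays left out. The dim cluster of Txnip and the lack of a cluster for Arrdc3 limit what these arrays can show.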
